A study of Bos taurus and Bos indicus with 12 samples.

Results

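The genes described here carry pyruvate into mitochondria and run the citrate cycle: MPC1, CS, IDH3A, OGDH, SUCLG1, SUCLG2, FH, MDH1 and MDH2. Every probe set of the array whose platform gene symbol was 1 of these 9 symbols was taken, which gave 12 of the 24016 non-control probe sets. They stand for 8 of the 9155 genes with a probe set of their own, because no probe set carried the symbol MDH1, which is not analysed here. FH, CS, IDH3A and MDH2 have 2 probe sets each, and MPC1, OGDH, SUCLG1 and SUCLG2 have 1 each. The genes were selected with results of these arrays known: FH for its large fall in infested Brahman skin and MPC1 for its difference between the breeds.

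Expression was measured in full-thickness skin biopsies of 12 female cattle, 1 Affymetrix bovine array for each animal, in 4 groups of 3. Infested Brahman and infested Holstein-Friesian animals were 6 months old, had been through repeated heavy infestations with the cattle tick Rhipicephalus microplus, and were sampled where young larvae were attached. The naive animals had never met the tick and were older, at 18 months for Brahman and 12 months for Holstein-Friesian. Brahman cattle are of zebu descent and resist the tick better, whereas Holstein-Friesian cattle are taurine and kept for milk. Infestation and age cannot be told apart within a breed. The infested groups shared 1 age.

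Pyruvate, the end product of glycolysis in the cytosol, crosses the inner mitochondrial membrane through a carrier made of MPC1 and MPC2. Pyruvate dehydrogenase turns it into acetyl-CoA, and the citrate cycle oxidises the acetyl group while passing electrons to the respiratory chain. The cycle also supplies building blocks: citrate that leaves the mitochondrion feeds fatty acid synthesis, which in skin is intense in the sebaceous glands, while the epidermis is known for a strong reliance on glycolysis.

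All values are log2 expression as the authors derived it with robust multi-array averaging (RMA), with n = 3 arrays per group, so a difference of 1 is a doubling. A level on an array cannot be set against the level of another probe set, and comparisons were therefore made for each probe set over the arrays. The skin label fitted the arrays: the basal keratins KRT5 and KRT14 lay at 13.75 to 14.11 and 14.22 to 14.67, and the dermal collagen COL1A1 at 13.08 to 14.75. The arrays differed in the balance of signal along transcripts. An index, the mean 5' minus 3' log2 signal of 5 control transcripts, was -4.91, -2.56 and -2.07 in infested Brahman arrays 1, 2 and 3, against -1.04, -0.85 and -0.92 in the naive Brahman arrays. It was -2.73, -0.75 and -1.23 in infested Holstein-Friesian arrays 1, 2 and 3, against -1.39, -0.82 and -1.17 in the naive Holstein-Friesian arrays. The 3 infested Brahman arrays and infested Holstein-Friesian 1 were thus lower than the other 8 arrays, and they are called the 4 low-index arrays.

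**Figure D1:**
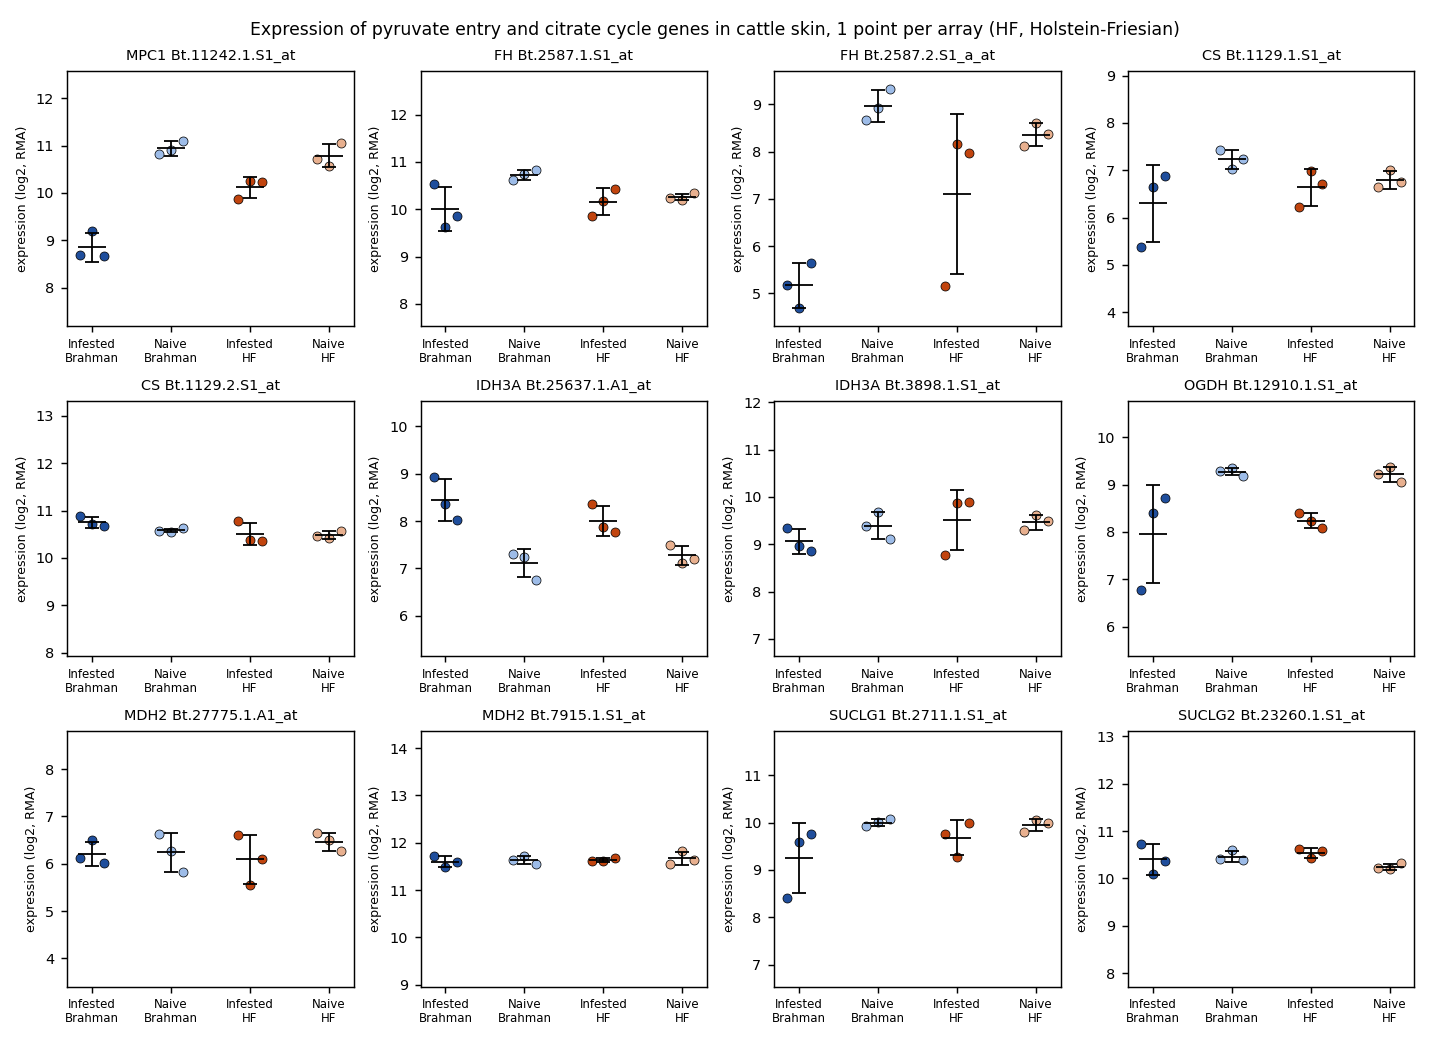
Expression (log2, RMA) of the 12 probe sets in every array, 1 panel per probe set and 1 point per animal, with the group mean and SD as bars and each axis placed around the values of its own probe set. MPC1 lies between 8.67 and 9.20 in the 3 infested Brahman arrays, and FH Bt.2587.2.S1_a_at between 4.69 and 5.65 in these and in infested Holstein-Friesian 1.

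MPC1 was low in infested Brahman skin. The MPC1 probe set (Bt.11242.1.S1_at) stood at 8.68, 9.20 and 8.67 in infested Brahman arrays, against 10.82, 10.90 and 11.10 in naive Brahman arrays. It stood at 9.87, 10.26 and 10.23 in infested Holstein-Friesian arrays, against 10.72, 10.58 and 11.05 in naive Holstein-Friesian arrays. In each breed every infested array lay below every naive array, and every infested Brahman array lay below every infested Holstein-Friesian array.

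The mean of MPC1 was 8.85 ± 0.30 (SD) in infested and 10.94 ± 0.15 in naive Brahman skin, a 4.26-fold difference (log2 -2.09). No p-value is given for MPC1 in any comparison, because it was chosen from its breed contrasts and the same arrays enter. Where a count of members past a threshold includes MPC1, it is descriptive for that gene and no test of it. Leaving out any 1 array gave log2 values between -2.26 and -2.00 for the Brahman difference, leaving out the 2 arrays of lowest index gave -2.00, and with the index as a covariate it was -1.86. In Holstein-Friesian skin the means were 10.12 ± 0.22 in infested and 10.79 ± 0.24 in naive animals, a log2 difference of -0.66 ± 0.19 (SE). That value was -0.74 after cyclic loess, -0.56 with array weights and between -0.77 and -0.53 on leaving out any 1 array.

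Among infested animals the MPC1 level was 2.42-fold lower in Brahman than in Holstein-Friesian skin (log2 -1.27). Among naive animals the log2 difference between Brahman and Holstein-Friesian was 0.15, with 10.94 ± 0.15 in Brahman and 10.79 ± 0.24 in Holstein-Friesian skin. Pooled over naive and infested animals it was -0.56. The order of the group means was therefore infested Brahman, infested Holstein-Friesian, naive Holstein-Friesian and naive Brahman from low to high, and the last 2 overlapped: naive Holstein-Friesian 3 at 11.05 exceeded naive Brahman 1 and 2.

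FH encodes fumarase, which hydrates fumarate to malate, and its 2 probe sets did not move alike. FH Bt.2587.2.S1_a_at stood at 5.18, 4.69 and 5.65 in infested Brahman arrays, against 8.66, 8.91 and 9.33 in naive Brahman arrays. It stood at 5.15, 8.16 and 7.97 in infested Holstein-Friesian arrays 1, 2 and 3, against 8.12, 8.60 and 8.37 in naive Holstein-Friesian arrays. The low values were thus those of the 4 low-index arrays, whichever the breed, and the other 8 arrays lay between 7.97 and 9.33.

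FH Bt.2587.1.S1_at stood at 10.54, 9.63 and 9.86 in infested Brahman arrays, against 10.62, 10.75 and 10.83 in naive ones. It stood at 9.86, 10.18 and 10.43 in infested Holstein-Friesian arrays, against 10.24, 10.20 and 10.34 in naive ones. Here too every infested Brahman array lay below every naive Brahman array, but infested Brahman 1, the array with the lowest index, came close to the naive arrays, and the Holstein-Friesian groups overlapped.

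The infested minus naive difference in Brahman skin was -3.79 on the log2 scale for FH Bt.2587.2.S1_a_at and -0.73 for FH Bt.2587.1.S1_at, values that chose FH and are given without a test. With the index as a covariate these differences were -2.56 and -1.0, and without the 2 arrays of lowest index they were -3.80 and -0.99. In Holstein-Friesian skin neither passed, at -1.27 ± 0.63 (adjusted p = 0.279) and -0.10 ± 0.22 (adjusted p = 0.838). The larger of these values rested on infested Holstein-Friesian 1, and without that array FH Bt.2587.2.S1_a_at differed by -0.29 (adjusted p = 0.578). Without that array the difference between infested Brahman and infested Holstein-Friesian animals was -2.90, against -1.92 with all arrays.

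The difference between the FH probe sets within an array shows the disagreement directly. Bt.2587.2.S1_a_at minus Bt.2587.1.S1_at was -5.36, -4.94 and -4.21 in infested Brahman arrays, against -1.96, -1.85 and -1.51 in naive ones. It was -4.71, -2.02 and -2.46 in infested Holstein-Friesian arrays, against -2.12, -1.60 and -1.97 in naive ones. The 4 low-index arrays spanned -5.36 to -4.21 and the other 8 spanned -2.46 to -1.51, so infested Holstein-Friesian 1 lay with the infested Brahman arrays and not with its own group. The part of the index in the FH values was not tested beyond the fits given.

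**Figure D2:**
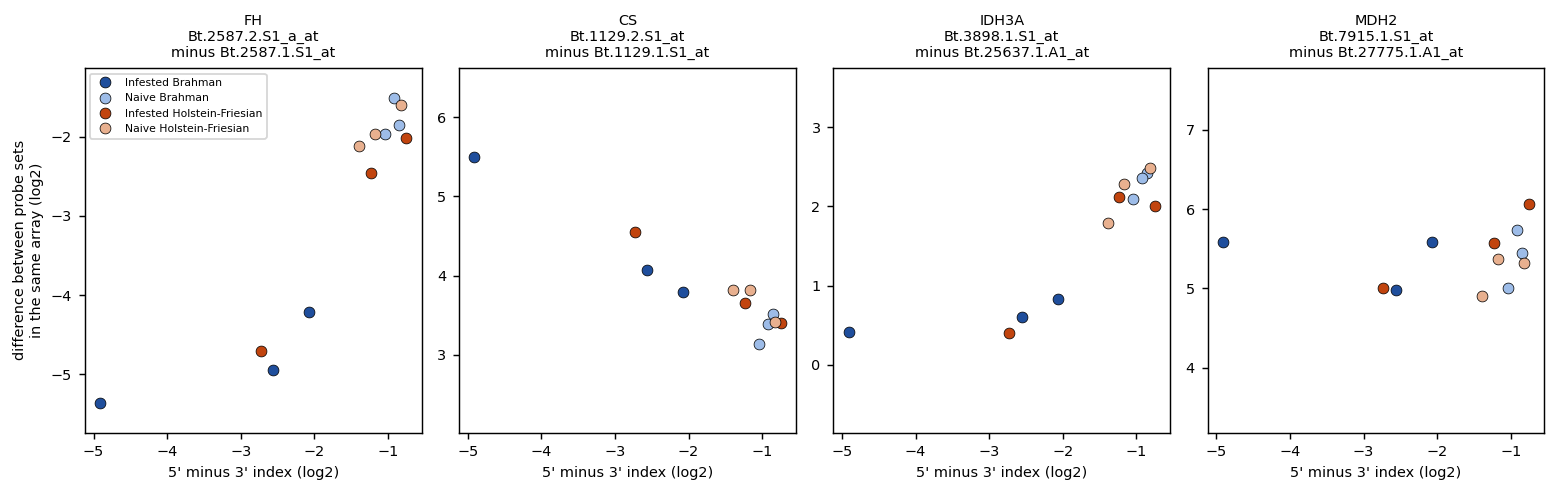
Log2 difference between the 2 probe sets of a gene in the same array (vertical axis) against the 5' minus 3' index of that array (log2, horizontal axis), 1 point per array and 1 panel per gene, coloured by group. For FH and IDH3A the 4 arrays with an index of -2.07 or lower lie apart from the other 8, for CS the ranges overlap (3.79 to 5.5 against 3.14 to 3.82), and for MDH2 no separation is visible.

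IDH3A encodes the catalytic subunit of the NAD-dependent isocitrate dehydrogenase, and its probe sets also disagreed. IDH3A Bt.25637.1.A1_at stood at 8.92, 8.37 and 8.02 in infested Brahman arrays, against 7.30, 7.25 and 6.76 in naive ones. It stood at 8.37, 7.87 and 7.77 in infested Holstein-Friesian arrays, against 7.50, 7.12 and 7.20 in naive ones. All infested arrays lay above all naive arrays in both breeds. It rose in infested Brahman skin by a log2 difference of 1.33 ± 0.25, or 2.52-fold (limma, adjusted p = 0.00587), and passed whichever array was left out (1.09 to 1.54). With the index as a covariate the difference was 0.66 and did not pass (adjusted p = 0.122). In Holstein-Friesian skin the difference was 0.73 ± 0.25 (adjusted p = 0.121). With the replicate number as a block it passed at the same size (adjusted p = 0.0384, or 0.0487 in the 6 Holstein-Friesian arrays alone).

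IDH3A Bt.3898.1.S1_at showed no such pattern. It stood at 9.34, 8.97 and 8.85 in infested Brahman arrays, against 9.39, 9.67 and 9.12 in naive ones. It stood at 8.77, 9.87 and 9.89 in infested Holstein-Friesian arrays, against 9.30, 9.61 and 9.48 in naive ones. The groups overlapped in both breeds, with differences of -0.34 ± 0.28 in Brahman (adjusted p = 0.426) and 0.05 ± 0.28 in Holstein-Friesian skin (adjusted p = 0.944). Between infested Brahman and infested Holstein-Friesian animals it differed by -0.45 with all arrays (adjusted p = 0.503). Without infested Holstein-Friesian 1 that difference was -0.83 and passed (adjusted p = 0.0441). Within an array Bt.3898.1.S1_at minus Bt.25637.1.A1_at was 0.40 to 0.83 in the 4 low-index arrays and 1.79 to 2.49 in the other 8. Only the first of the IDH3A probe sets thus rose in infested Brahman skin.

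OGDH, the first component of the oxoglutarate dehydrogenase complex, had lower values in every infested array than in any naive array. OGDH (Bt.12910.1.S1_at) stood at 6.77, 8.39 and 8.72 in infested Brahman arrays, against 9.29, 9.34 and 9.19 in naive ones. It stood at 8.39, 8.24 and 8.09 in infested Holstein-Friesian arrays, against 9.22, 9.37 and 9.06 in naive ones. Infested Brahman 1 lay well below all others.

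OGDH fell in infested Brahman skin by 1.32 ± 0.38 on the log2 scale, or 2.49-fold (limma, adjusted p = 0.0356). The difference was -0.72 without infested Brahman 1 (adjusted p = 0.0111) and -0.34 with the index as a covariate (adjusted p = 0.657). The call was lost on leaving out naive Holstein-Friesian 1 or 3 or any 1 naive Brahman array (adjusted p up to 0.0944). It was also lost in the 6 Brahman arrays alone (adjusted p = 0.12) and with the replicate number as a block in those arrays (adjusted p = 0.153). In Holstein-Friesian skin the log2 difference was -0.98 ± 0.38 (adjusted p = 0.168). That value passed without infested Brahman 1 (adjusted p = 0.00445), which enters only through the shared spread, in the 6 Holstein-Friesian arrays alone (adjusted p = 0.0218) and with the replicate number as a block in those 6 arrays (adjusted p = 0.032). The effect in Brahman minus that in Holstein-Friesian skin was -0.34 for OGDH (95% interval -1.54 to 0.86, adjusted p = 0.876). Between infested Brahman and infested Holstein-Friesian skin OGDH differed by -0.28 (adjusted p = 0.769).

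CS, citrate synthase, joins acetyl-CoA to oxaloacetate. CS Bt.1129.1.S1_at stood at 5.38, 6.64 and 6.88 in infested Brahman arrays, against 7.43, 7.02 and 7.24 in naive ones. It stood at 6.22, 6.99 and 6.71 in infested Holstein-Friesian arrays, against 6.65, 7.01 and 6.75 in naive ones. Every infested Brahman array lay below every naive Brahman array, with infested Brahman 1 lowest. The Brahman difference of -0.93 ± 0.34 did not pass (adjusted p = 0.077), and it was -0.47 without infested Brahman 1. On leaving out infested Brahman 3 it was -1.22 and passed (adjusted p = 0.0347). CS Bt.1129.2.S1_at averaged 10.75 ± 0.11 in infested and 10.58 ± 0.04 in naive Brahman skin, and 10.50 ± 0.23 in infested and 10.49 ± 0.08 in naive Holstein-Friesian skin. Its differences were 0.18 ± 0.14 in Brahman (adjusted p = 0.384) and 0.02 ± 0.14 in Holstein-Friesian skin (adjusted p = 0.957).

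SUCLG1, the alpha subunit of succinyl-CoA ligase, stood at 8.40, 9.59 and 9.76 in infested Brahman arrays, against 9.92, 10.01 and 10.07 in naive ones. It stood at 9.76, 9.27 and 10.00 in infested Holstein-Friesian arrays, against 9.80, 10.05 and 9.99 in naive ones. Infested Brahman 1 was again the lowest array. The Brahman difference was -0.75 ± 0.31 and did not pass (adjusted p = 0.112), and without infested Brahman 1 it was -0.32. SUCLG2, the beta subunit of the GTP-forming ligase, averaged 10.40 ± 0.32 in infested and 10.46 ± 0.12 in naive Brahman skin, and 10.54 ± 0.11 in infested and 10.24 ± 0.06 in naive Holstein-Friesian skin. The 3 infested Holstein-Friesian arrays of SUCLG2 lay above the 3 naive ones, and the difference of 0.30 ± 0.16 did not pass (adjusted p = 0.306).

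MDH2, the mitochondrial malate dehydrogenase that closes the cycle, differed little between the 4 groups. MDH2 Bt.7915.1.S1_at averaged 11.60 ± 0.11 in infested and 11.64 ± 0.08 in naive Brahman skin, and 11.64 ± 0.04 in infested and 11.67 ± 0.14 in naive Holstein-Friesian skin. Its differences were -0.04 ± 0.12 in Brahman (95% interval -0.31 to 0.22) and -0.03 ± 0.12 in Holstein-Friesian skin (95% interval -0.30 to 0.24). MDH2 Bt.27775.1.A1_at ran from 5.56 to 6.65 over the 12 arrays, with overlapping groups in both breeds and differences of -0.03 ± 0.27 in Brahman and -0.38 ± 0.27 in Holstein-Friesian skin. Within an array the MDH2 probe sets differed by 4.98 to 5.59 in the 4 low-index arrays and by 4.90 to 6.06 in the other 8, so this pair did not separate as those of FH and IDH3A did.

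In infested against naive Brahman skin 5 of the 12 member probe sets passed, 1 higher and 4 lower, where 19.8% of all probe sets were called, 9.54% higher and 10.2% lower. MPC1 and both FH probe sets are among the 5. FH was chosen for these values, and MPC1 for its breed difference, into which the same infested Brahman arrays enter. Of the other 9, IDH3A Bt.25637.1.A1_at and OGDH passed, a share near that of all probe sets. The arrays of these 9 did not overlap for 5, 2 higher and 3 lower, where 38.5% of all probe sets did not overlap. Their median log2 difference was -0.07, against 0.04 over all probe sets. In the fit with the index as a covariate none of the 9 passed, where 7.53% of all probe sets were called, and without the 2 arrays of lowest index the same 2 passed, where 26% were called.

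In infested against naive Holstein-Friesian skin none of the 12 passed by limma, where 5.02% of all probe sets were called, 2.68% higher and 2.34% lower. At an unadjusted p under 0.05 there were 3, MPC1 among them, where 21.6% of all probe sets were under it. With the replicate number as a block, 1 passed (IDH3A), and in the 6 Holstein-Friesian arrays alone with the block 2 passed (IDH3A and OGDH). Without MPC1 and FH, the arrays of these groups did not overlap for 3 of the 9, 2 higher and 1 lower, where 30.3% of all probe sets did not overlap. The median log2 difference of the 9 was -0.03, the same as over all probe sets.

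**Figure D3:**
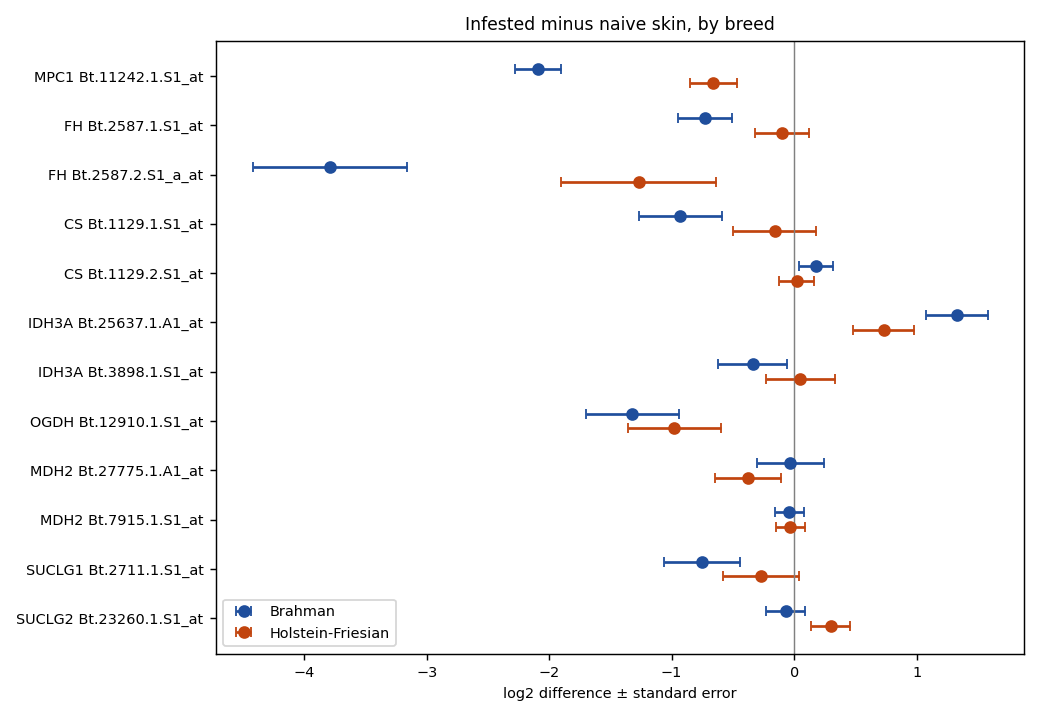
Log2 difference of infested minus naive skin for each of the 12 probe sets, in Brahman and in Holstein-Friesian animals, as points with the standard error of the limma fit as bars. The Brahman point lies further to the left for 9 of the 12, and IDH3A Bt.25637.1.A1_at lies to the right of 0 in both breeds, at 1.33 in Brahman and 0.73 in Holstein-Friesian skin.

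The breed difference of MPC1 was set beside those of the other members. Among infested animals MPC1 differed by -1.27 and was the only member of the 12 to pass or to have no overlap between Brahman and Holstein-Friesian arrays, where 0.167% of all probe sets passed and 13.4% had no overlap. That MPC1 stands out here is what chose it. FH Bt.2587.2.S1_a_at differed by -1.92 and FH Bt.2587.1.S1_at by -0.15. The 9 probe sets of the other genes lay between -0.45 for IDH3A Bt.3898.1.S1_at and 0.43 for IDH3A Bt.25637.1.A1_at, with adjusted p between 0.456 and 0.904 (limma). Without infested Holstein-Friesian 1, which has a low index, 3 of the 12 passed, MPC1, FH Bt.2587.2.S1_a_at and IDH3A Bt.3898.1.S1_at. None did on leaving out infested Holstein-Friesian 2 or 3, naive Holstein-Friesian 1, infested Brahman 3 or any 1 naive Brahman array, nor with the index as a covariate or in the 6 infested arrays alone. The shares of all probe sets called in these fits are not given here. MPC1 and FH were chosen on contrasts that the infested Brahman arrays enter, so their part of these counts is descriptive.

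Among naive animals none of the 12 probe sets passed by limma, where 0.025% of all probe sets were called, and none had an unadjusted p under 0.05. Naive Brahman arrays lay above naive Holstein-Friesian arrays without overlap for 4 of the 12, where 14.5% of all probe sets had no overlap in either direction. FH was among them, with 10.73 ± 0.11 in Brahman and 10.26 ± 0.07 in Holstein-Friesian skin for Bt.2587.1.S1_at. The others were the second FH probe set, CS Bt.1129.1.S1_at and SUCLG2. FH was chosen for its fall in Brahman skin, a difference into which the naive Brahman arrays enter. Without MPC1 and FH the arrays did not overlap for 2 of the 9, a share nearer that of all probe sets. The naive groups differed in age by 6 months, and breed and age cannot be told apart there. Pooled over naive and infested animals none of the 12 passed, where 0.137% of all probe sets were called. At an unadjusted p under 0.05 there was 1, MPC1, which was chosen for its breed difference, where 9.02% of all probe sets were under it. Without infested Holstein-Friesian 1 the pooled count was 1, an FH probe set, and the share of all probe sets called in that fit is not given here.

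**Figure D4:**
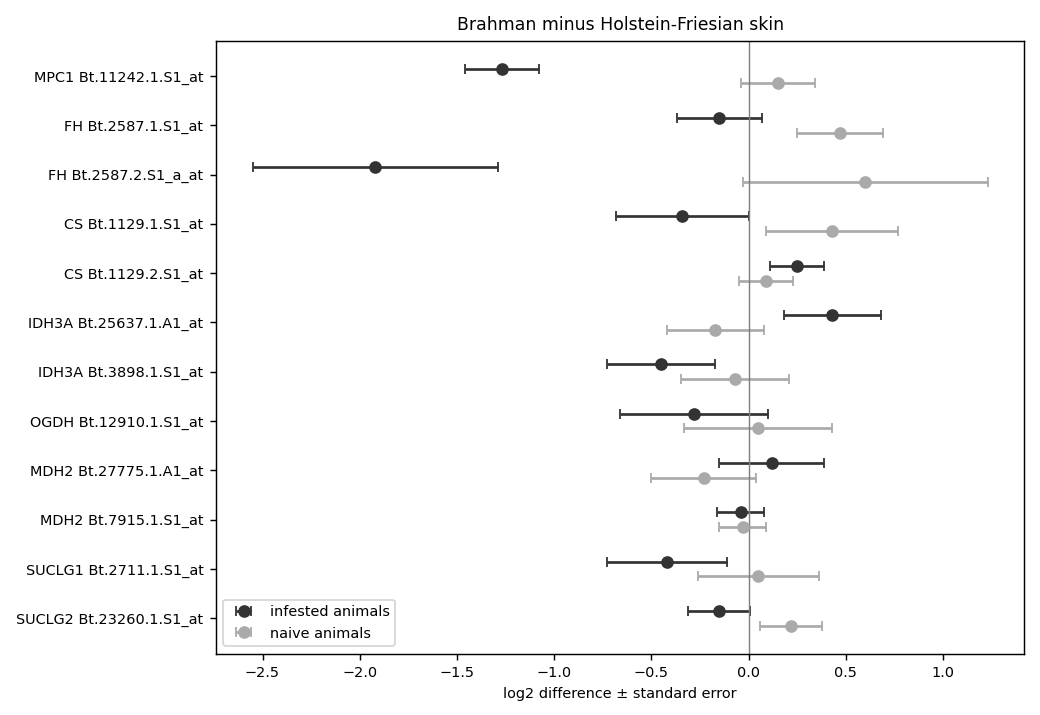
Log2 difference of Brahman minus Holstein-Friesian skin for each of the 12 probe sets, for infested and for naive animals, as points with the standard error of the limma fit as bars. MPC1 stands at -1.27 among infested and at 0.15 among naive animals.

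The infestation effect in Brahman minus that in Holstein-Friesian skin was -1.43 for MPC1, -2.53 for FH Bt.2587.2.S1_a_at and -0.63 for FH Bt.2587.1.S1_at, given without a test. The other 9 lay between -0.77 for CS Bt.1129.1.S1_at and 0.60 for IDH3A Bt.25637.1.A1_at. None of these 9 passed by limma, where 0.00416% of all probe sets were called, and none had an unadjusted p under 0.05, where 7.46% of all probe sets were under it. The members that passed without infested Holstein-Friesian 1 or without the 2 arrays of lowest index were MPC1 and FH alone, so those counts follow from how the genes were chosen. Naive animals were 18 months old in Brahman and 12 months in Holstein-Friesian, against 6 months in both infested groups. An unequal age gap and a breed difference in the response therefore cannot be told apart in this contrast.

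Over the 12 arrays MPC1 ran most like the probe sets of COG2 (Pearson r = 0.967), SARAF (0.966), EMC3 (0.961), JAGN1 (0.958) and CRYZ (0.956), among 13291 other probe sets with 1 gene symbol. Each of these had lower values in infested than in naive Brahman skin, with differences between -2.23 for CRYZ and -0.79 for COG2 on the log2 scale. Among the members, FH Bt.2587.2.S1_a_at ranked 122 in likeness to MPC1 (r = 0.896), OGDH 1619 (r = 0.727) and IDH3A Bt.25637.1.A1_at 13150 (r = -0.876). FH Bt.2587.2.S1_a_at ran most like ZMYM5 (0.994), GOLPH3L (0.991), SEC23IP (0.991), TOMM70 (0.989) and UBQLN1 (0.988), and MPC1 ranked 412. The points of these correlations are arrays of 4 groups that also differ in the index, so they describe shared patterns only.

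The partners of MPC1 in pyruvate entry were described on a list of 14 genes that includes it, with 12 measured, each by its brightest probe set. In infested Brahman skin 5 of the 12 were lower and 0 higher, where 11.2% of 9155 genes were lower and 8.5% higher. Without MPC1, which was chosen on these arrays, 4 of the other 11 were lower and their median was -0.28, against -0.02 over all genes. DLAT, the acetyltransferase core of pyruvate dehydrogenase, stood at 7.32, 6.69 and 6.59 in infested Brahman arrays, against 7.85, 8.23 and 8.14 in naive ones, and fell by 1.21 ± 0.24 (limma, adjusted p = 0.0074). The groups did not overlap, and DLAT passed whichever array was left out and with the index as a covariate (-1.33, adjusted p = 0.0467). Its 3 probe sets ranged from -2.21 to 0.23.

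PDHB, the beta subunit of the decarboxylating component, stood at 8.59, 8.03 and 8.55 in infested Brahman arrays, against 9.33, 9.67 and 9.53 in naive ones, and fell by 1.12 ± 0.23 (adjusted p = 0.00891). The other 2 PDHB probe sets did not pass, the highest at 0.09. DLD, the dihydrolipoyl dehydrogenase that pyruvate and oxoglutarate dehydrogenase share, fell by 0.92 ± 0.26 (adjusted p = 0.0325), a call lost on leaving out infested Brahman 2 or 3 or naive Brahman 2 or 3. The fifth gene was MPC2, the partner of MPC1 in the carrier, named after its values were seen. It stood at 9.99, 10.03 and 9.89 in infested Brahman arrays, against 10.51, 10.57 and 10.77 in naive ones, and fell by 0.65 ± 0.17 (adjusted p = 0.0238). The MPC2 call was lost on leaving out infested Brahman 3 or naive Brahman 2 or 3. With the index as a covariate PDHB, DLD and MPC2 did not pass (adjusted p = 0.132, 0.111 and 0.279).

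In infested Holstein-Friesian skin 1 of the 12 pyruvate entry genes was lower and 0 higher, where 2.84% of genes were lower and 3.13% higher. Without MPC1 the median of the other 11 was -0.18, against -0.04 over all genes. The lower gene was PDHA1, the alpha subunit of the decarboxylating component, also named after its values were seen. It stood at 10.10, 10.25 and 10.04 in infested arrays, against 10.75, 10.77 and 10.79 in naive ones, and fell by 0.64 ± 0.14 (adjusted p = 0.0288, with 0.0478 with the replicate number as a block and 0.0567 with the block in the 6 arrays alone). That call was lost on leaving out infested Holstein-Friesian 2 or 3 or any 1 naive Holstein-Friesian array, and the 4 PDHA1 probe sets ranged from -1.46 to -0.02. MPC2 differed there by -0.18 (adjusted p = 0.577).

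Of the other enzymes of the cycle, 10 of 13 listed were measured. In infested Brahman skin 5 were lower and 0 higher (median -0.70), and in infested Holstein-Friesian skin 1 was lower and 0 higher (median -0.24). Of all genes 11.2% were lower and 8.5% higher in Brahman skin (median -0.02). In Holstein-Friesian skin these shares were 2.84% and 3.13% (median -0.04). SDHA, the flavoprotein subunit of succinate dehydrogenase, passed in both breeds. It stood at 9.47, 9.50 and 9.22 in infested Brahman arrays, against 10.40, 10.41 and 10.27 in naive ones. SDHA stood at 9.74, 9.82 and 9.66 in infested Holstein-Friesian arrays, against 10.42, 10.68 and 10.50 in naive ones. Every infested array of SDHA lay below every naive array.

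SDHA fell by 0.97 ± 0.13 in Brahman (adjusted p = 0.0012) and by 0.79 ± 0.13 in Holstein-Friesian skin (adjusted p = 0.0109). Both calls held whichever array was left out, and with the index as a covariate the values were -1.02 in Brahman and -0.80 in Holstein-Friesian skin (adjusted p = 0.0113 and 0.00878). DLD is also in this list. IDH3G, the gamma subunit beside IDH3A, fell by 0.84 ± 0.23 in Brahman skin (adjusted p = 0.029), with -0.53 without infested Brahman 1 and -0.17 with the index as a covariate (adjusted p = 0.647). The IDH3G call was lost on leaving out any 1 naive Brahman array. ACO1, the cytosolic aconitase, fell by 0.71 ± 0.19 (adjusted p = 0.0275), a call lost on leaving out infested Brahman 2 or naive Brahman 2 or 3. SDHC, a membrane anchor of succinate dehydrogenase and the fifth gene, named after its values were seen, fell by 0.70 ± 0.12 (adjusted p = 0.00455). With the index as a covariate ACO1 and SDHC did not pass (adjusted p = 0.088 and 0.0623).

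**Figure D5:**
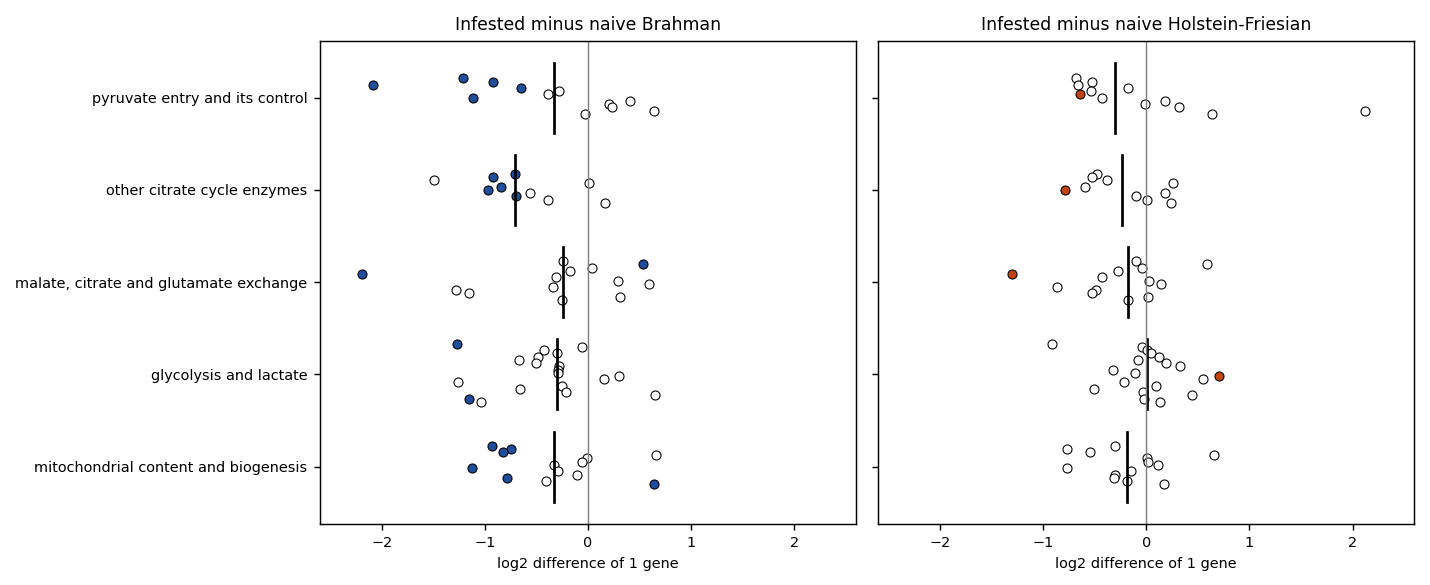
Log2 difference of infested minus naive skin for the measured genes of 5 lists, 1 point per gene, in Brahman and in Holstein-Friesian animals; filled points passed the adjusted p of 0.05 and the vertical bars are list medians. In Brahman skin 5 pyruvate entry genes, MPC1 among them, and 5 other cycle enzymes are filled, all left of 0.

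Routes that lead out of the cycle were listed as malate, citrate and glutamate exchange, with 13 of 16 genes measured. In infested Brahman skin 1 was higher and 1 lower (median -0.24), where 8.5% of all genes were higher and 11.2% lower. In infested Holstein-Friesian skin 1 was lower and 0 higher (median -0.18), where 2.84% of all genes were lower and 3.13% higher. ME1, the cytosolic malic enzyme that turns malate into pyruvate and supplies NADPH for lipid synthesis, stood at 9.45, 8.40 and 8.59 in infested Brahman arrays, against 11.21, 10.65 and 11.17 in naive ones. ME1 stood at 8.71, 9.33 and 9.06 in infested Holstein-Friesian arrays, against 10.29, 10.02 and 10.68 in naive ones. No infested array reached a naive array.

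ME1 fell by 2.19 ± 0.29 in Brahman (adjusted p = 0.00124) and by 1.30 ± 0.29 in Holstein-Friesian skin (adjusted p = 0.0327), and both of its probe sets passed in each breed. With the index as a covariate the values were -2.56 in Brahman and -1.37 in Holstein-Friesian skin, both past the threshold. The Holstein-Friesian call was lost when any 1 Holstein-Friesian array was left out (adjusted p up to 0.103). GLUD1, glutamate dehydrogenase, rose by 0.53 ± 0.16 in Brahman skin (adjusted p = 0.037) on the probe set used, while its other probe set differed by -0.72. The GLUD1 call was lost on leaving out naive Holstein-Friesian 3, naive Brahman 1 or 3, or any 1 infested Brahman array, and with the index as a covariate (0.74, adjusted p = 0.0654).

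Glycolysis, which makes the pyruvate, was measured with 19 of 20 genes. In infested Brahman skin 2 were lower and 0 higher, where 11.2% of all genes were lower and 8.5% higher. There 16 of the 19 stood below 0, and the median was -0.30, against -0.02 over all genes. The mean over the 19 genes, each minus its mean of the 6 naive arrays, was -0.74, -0.30 and -0.07 in infested Brahman 1, 2 and 3. It was 0.02 to 0.09 in naive Brahman arrays. In infested Holstein-Friesian skin 1 was higher and 0 lower, where 3.13% of genes were higher and 2.84% lower. The median there was 0.01, against -0.04 over all genes. The glucose transporter gene SLC2A1 stood at 9.17, 9.11 and 9.0 in infested Brahman arrays, against 10.50, 9.89 and 10.34 in naive ones, and fell by 1.15 ± 0.24 (adjusted p = 0.00866). ALDOA, an aldolase, stood at 10.62, 12.03 and 12.58 in infested Brahman arrays, against 12.82, 13.12 and 13.10 in naive ones. It fell by 1.27 ± 0.38 (adjusted p = 0.0374), or by 0.71 without infested Brahman 1, and the call was lost on leaving out infested Brahman 2 or any 1 naive array. Neither ALDOA nor SLC2A1 passed with the index as a covariate (adjusted p = 0.696 and 0.124). The gene that rose in Holstein-Friesian skin was PFKM, a phosphofructokinase, by 0.71 ± 0.18 (adjusted p = 0.0497, with 0.0807 with the replicate number as a block and 0.0471 with the block in the 6 arrays alone). It was named after its values were seen, and the call was lost on leaving out any 1 Holstein-Friesian or naive Brahman array or infested Brahman 3.

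Genes of mitochondrial content and biogenesis were measured for 13 of 20. In infested Brahman skin 5 were lower and 1 higher (median -0.33), where 11.2% of all genes were lower and 8.5% higher. In infested Holstein-Friesian skin none passed by limma, where 2.84% of all genes were lower and 3.13% higher. There 3 had an unadjusted p under 0.05, where 21.6% of all probe sets were under it, and the median was -0.19. TIMM44, part of the import motor, fell by 1.13 ± 0.29 in Brahman skin (adjusted p = 0.0233), or by 0.70 on leaving out infested Brahman 1, and the call was lost on leaving out naive Brahman 2 or 3. The protease gene CLPP fell by 0.93 ± 0.27 (adjusted p = 0.0362), or by 0.56 on leaving out infested Brahman 1. The CLPP call was lost there and on leaving out any 1 naive array.

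The chaperonin gene HSPD1 fell by 0.82 ± 0.21 in Brahman skin (adjusted p = 0.0221), a call lost on leaving out infested Brahman 2 or any 1 naive Brahman array. VDAC1, the outer membrane channel, fell by 0.79 ± 0.19 (adjusted p = 0.0177), and its other probe set differed by -3.35. The VDAC1 call was lost on leaving out naive Brahman 2 or 3. None of these 4 passed with the index as a covariate (adjusted p 0.183 to 0.509). The remaining calls, named after their values were seen, were the mitochondrial chaperone gene HSPA9 at -0.75 ± 0.22 (adjusted p = 0.0342) and the channel gene VDAC3 at 0.64 ± 0.16 (adjusted p = 0.021). HSPA9 did not pass on leaving out naive Holstein-Friesian 1, infested Brahman 2 or naive Brahman 2 or 3, nor VDAC3 on leaving out naive Brahman 1 or 3, and neither passed with the index as a covariate (adjusted p = 0.194 and 0.336).

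Counts in all 5 lists moved with the libraries and the fit used. With the index as a covariate the genes past the threshold in Brahman skin numbered 2 for pyruvate entry, 1 for the other cycle enzymes, 1 for exchange, 0 for glycolysis and 2 for mitochondrial content, where 7.53% of all probe sets were called. Without the 2 arrays of lowest index they numbered 6, 6, 3, 3 and 8 in the same order, where 26% were called. With all arrays the share was 19.8%. These shares are of all probe sets, whereas the list counts are of genes with 1 probe set each, so the units differ.

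Markers of other cell types also differed between the groups, and their part in the results above was not tested. In whole skin, fewer cells of a type and less RNA per cell cannot be told apart. A list level is the mean over its genes of the value in an array minus the mean of the 6 naive arrays. The sebaceous gland list (7 of 10 genes measured) lay at -1.44 to -1.0 in infested Brahman arrays, against -0.07 to 0.30 in naive ones, and at -1.19 to -1.0 in infested Holstein-Friesian arrays, against -0.15 to -0.03 in naive ones. The fibroblast list (7 of 7) lay at 1.05 to 1.35 in infested Brahman arrays, against -0.40 to 0.01 in naive ones, and at 0.90 to 1.08 in infested Holstein-Friesian arrays, against -0.03 to 0.34 in naive ones. For both lists no infested array overlapped a naive array of its breed. The sebaceous genes did not all fall: in each breed 5 of the 7 had a negative and 2 a positive difference. FADS2 stood higher, at 6.10, 6.19 and 6.12 in infested Brahman arrays, against 5.42, 5.36 and 5.30 in naive ones.

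The adipocyte list (6 of 8) lay at 0.81 to 1.56 in infested Brahman arrays, against -0.38 to 0.42 in naive ones, and at 0 to 0.34 in infested Holstein-Friesian arrays, against -0.31 to 0.39 in naive ones. The glandular epithelium list (7 of 7) lay at -1.12 to -0.36 in infested Brahman arrays, against -0.25 to 0.45 in naive ones, and at -1.05 to -0.46 in infested Holstein-Friesian arrays, against -0.52 to 0.15 in naive ones. Its genes went opposite ways: in Brahman skin KRT7, KRT18, KRT19 and AZGP1 fell while AQP5 and ELF5 rose. In Holstein-Friesian skin the same 4 fell, and AQP5 and ELF5 stood higher in every infested than in any naive array. AQP5 stood there at 8.82, 7.67 and 8.02 in infested arrays, against 6.69, 5.62 and 6.39 in naive ones. The leukocyte list (7 of 10) lay at 0.46 to 1.26 in infested Brahman arrays, against -0.18 to 0.61 in naive ones, and at 0.84 to 1.49 in infested Holstein-Friesian arrays, against -0.43 to 0.22 in naive ones. The adipocyte list mean thus stood apart in infested Brahman skin, and the leukocyte list mean overlapped between the Brahman groups. Of the 6 adipocyte genes 5 had a positive and 1 a negative Brahman difference, and ADIPOQ, FABP4 and RBP4 overlapped there. LPL stood higher in infested Holstein-Friesian skin too, at 7.74, 8.28 and 8.05, against 6.68, 6.92 and 6.48 in naive arrays.

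The keratinocyte list (4 of 10) stayed between -0.19 and 0.18 in all 12 arrays. Skeletal muscle genes (13 of 17) lay at -0.82 to -0.67 in infested Brahman arrays, against -0.80, 1.02 and 1.49 in naive Brahman arrays 1, 2 and 3, and at -0.97 to -0.69 in infested Holstein-Friesian arrays, against -0.93 to -0.21 in naive ones. Naive Brahman 2 and 3 were therefore the arrays with the highest mean over the muscle genes. These genes did not all go this way: from naive to infested Brahman skin 11 of the 13 had a negative and 2 a positive difference. CKM stood at 9.55, 10.07 and 9.83 in infested Brahman arrays, against 8.51, 8.61 and 8.59 in naive ones.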

How the data were processed

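The deposited values are log2 expression values, which the authors made with RMA, per the submitters' processing notes. Which program ran RMA, and with which chip definition, is not given in the sources used here. Values from 2.86 to 14.82 fit a log2 scale. Of 24128 probe sets, 112 controls were left out. Symbols came from the platform annotation, and a gene in a list was represented by its probe set of highest mean. Signal over background is unknown because detection calls were not used. Precision is limited by the number of arrays. Array medians lay between 6.576 and 6.729.

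limma 3.58.1 (R 4.3.3; lmFit, eBayes) fitted 4 group means to all 12 arrays, with 8 residual degrees of freedom. Tests were two-sided, with Benjamini-Hochberg adjustment over 24016 probe sets within each of 6 comparisons and a threshold of 0.05. The procedure was tested on simulated data. The members and gene lists were chosen with earlier results of these data known. All member probe sets were named, and of each list up to 4 genes past the threshold, those of largest change in Brahman skin.

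Infested and naive Holstein-Friesian arrays of the same number correlated by 0.113 to 0.249 in their deviations from the group means. By the rule used (every correlation over 0.1) the replicate number was therefore also tried as a block. The other 5 pairs of groups did not meet this rule. No label pairs these arrays, which came from different animals of different ages. The 5' minus 3' index also ran in the same order over the numbers in both Holstein-Friesian groups. A shared index and a pairing cannot be told apart here, so blocked values are no evidence of a paired design. Blocked values stand beside the Holstein-Friesian results whose call they change. Alternatives were dropping the dimmest 40 percent of probe sets, cyclic loess, median centring, array weights, a robust trended prior, fitting only the 6 arrays compared, the replicate block, the index as a covariate, and leaving out arrays. The block within 6 arrays was added after seeing the data.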

Additional observations from a re-analysis of the deposited data

How the results depend on the processing

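Counts are of the 12 member probe sets past the threshold, with all arrays 5 in infested against naive Brahman skin, 0 in Holstein-Friesian skin, 0 for the breed difference in the infestation effect, 1 in infested Brahman against infested Holstein-Friesian animals, and 0 among naive animals and for the breeds pooled. In Brahman skin the count was 3 with only the 6 arrays compared, 1 with the index as a covariate, 3 with the block in those 6 arrays, and 3 to 5 leaving out 1 array (3 without naive Holstein-Friesian 1 or 3 or any 1 naive Brahman array). In Holstein-Friesian skin it was 1 after cyclic loess, with only the 6 arrays, with the replicate block, and without the 2 arrays of lowest index. It was 2 with array weights and with the block in the 6 arrays, and 0 to 2 leaving out 1 array (2 without infested Brahman 1). MPC1 was the member counted after cyclic loess, and was 1 of the 2 with array weights and without infested Brahman 1. The share of all probe sets called in Holstein-Friesian skin was 5.02% with all arrays. Where the count was 2, it was 19.1% with array weights, 5.82% with the block in the 6 arrays and 10.7% without infested Brahman 1. Without the 2 arrays of lowest index the share was 17%. In Brahman skin that share was 12.5% with only the 6 arrays, 7.53% with the index and 3.89% with the block in the 6 arrays, against 19.8%. For the difference in effect the count was 3 with array weights and without the 2 arrays of lowest index, MPC1 and both FH probe sets. It was 0 to 2 leaving out 1 array (2 without infested Holstein-Friesian 1). For infested Brahman against infested Holstein-Friesian animals it was 0 with only the 6 arrays and with the index as a covariate, 2 with array weights, 4 without the 2 arrays of lowest index, and 0 to 3 leaving out 1 array (3 without infested Holstein-Friesian 1). For the breeds pooled it was 1 with array weights, 3 without the 2 arrays of lowest index, and 0 to 1 leaving out 1 array (1 without infested Holstein-Friesian 1). For the difference in effect, the infested breeds and the breeds pooled, the share of all probe sets called in each setting is not given here. Their changes in count are therefore no result about the members. The cause of the changes in count between settings was not tested. Fewer arrays also leave fewer degrees of freedom, and the part of this was not tested either. No named value reversed past the threshold in any setting. The replicate block over all arrays changed the count only in Holstein-Friesian skin, to 1, and in Brahman skin, to 4. Median centring also gave 4 in Brahman skin, FH Bt.2587.1.S1_at being lost. All 12 members passed the low-signal filter.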
